A study of Mus musculus with 2 samples.

Results

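Described here are 9 genes among the 55487 gene symbols of the expression table: the interleukin 1 ligands Il1b and Il1a, the receptor antagonist Il1rn, the decoy receptor Il1r2, the related cytokine Il18, the inflammasome sensor Nlrp3, the protease Casp1, and the C-type lectin receptors Clec4e and Clec7a. They were taken by name, and all 9 were found. The list was chosen by measured values: earlier results of these data had shown Clec4e, Nlrp3 and Il1b lower in the Trpv1-ADC group within macrophage-like cells. The values of the 9 genes in that class are therefore given below as a description, with no test. The other cell classes and the levels by class were not part of that choice, but all come from the same 4 mice.

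The cells were CD45+ immune cells sorted from the cecum, the pouch at the start of the large intestine, of 101-day-old male mice. There were 2 CTRL and 2 Trpv1-ADC mice, littermates per the series design, in a study of how activating neurons that express Trpv1, the capsaicin receptor of pain-sensing neurons, affects gut immune cells. The treatment label is shared by all 4 mice: AAV injected into the peritoneum of newborns, then CNO, a drug that acts on engineered receptors, given every other day for 7 injections. For strain the labels give Trpv1-WT.B6 together with Trpv1-Cre.B6 and do not assign them to single animals, and the receptor construct and the neurons it reached are not given in the sources used here. Cells were freed with dispase and collagenase II, tagged with 1 anti-CD45 hashtag per mouse and run together in a single 10x Genomics lane.

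Interleukin 1 beta and interleukin 18 are made as inactive precursors. Microbial signals, among them those read by Toll-like receptors and by C-type lectins such as Dectin-1 (Clec7a, which binds fungal beta-glucan) and Mincle (Clec4e, which binds microbial glycolipids), switch on transcription of Il1b and Nlrp3. The NLRP3 sensor then assembles an inflammasome that activates caspase-1, which cuts the precursors. Interleukin 1 alpha acts through the same receptor, the antagonist encoded by Il1rn blocks that receptor, and the decoy encoded by Il1r2 binds the ligands without signalling. Messenger RNA counts do not measure cleavage or secretion.

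The files held 23063 barcodes. After the cell filter and removal of doublets 17519 cells carried 1 mouse's tag, and 20 cell classes were named from marker genes, each called "-like" because the names were rebuilt from the data. The 5 myeloid classes described below held 15 to 187 cells per mouse: neutrophil-like cells (40 and 29 in CTRL 1 and 2, 15 and 16 in Trpv1-ADC 1 and 2), monocyte-like cells (165, 124, 94 and 71), macrophage-like cells (187, 75, 128 and 80), and conventional dendritic cell (cDC) classes, of which cDC2-like cells numbered 84, 68, 49 and 61 and cDC1-like cells 47, 57, 34 and 42. Levels are UMIs of a gene per 1000000 UMIs of that class in that mouse (CPM). A UMI tags 1 captured RNA molecule.

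Upstream promoter bases of Nlrp3, Clec4e and Clec7a are shown because transcription of Nlrp3 and Clec4e is inducible by microbial signals, and Clec7a is the member that was lower in most myeloid classes. Each is the 250 bases before a RefSeq start site, on the gene's own strand, in build GRCm38.p6. Capitals mark matches to 5 motifs searched on both strands: AP-1 (TGANTCA), C/EBP (TTGCNNAA), PU.1 (GAGGAAG), CRE (TGACGTCA) and kappaB, where N is any base and overlapping matches were allowed. Of 32851 promoter windows of this length, 6.75% held the AP-1 letters, 9.56% the C/EBP letters, 10.6% the PU.1 letters, 1.55% the CRE letters and 3.90% a kappaB match. A match is a description of the letters only.
Nlrp3, start site 1 (chr11:59542436-59542685, + strand, 2 PU.1 matches): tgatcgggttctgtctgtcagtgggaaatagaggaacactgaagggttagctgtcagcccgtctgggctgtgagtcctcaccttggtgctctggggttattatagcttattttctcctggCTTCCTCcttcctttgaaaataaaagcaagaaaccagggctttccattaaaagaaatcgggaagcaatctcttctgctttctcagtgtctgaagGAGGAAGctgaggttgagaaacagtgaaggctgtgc
Nlrp3, start site 2 (chr11:59541319-59541568, + strand, 1 kappaB match): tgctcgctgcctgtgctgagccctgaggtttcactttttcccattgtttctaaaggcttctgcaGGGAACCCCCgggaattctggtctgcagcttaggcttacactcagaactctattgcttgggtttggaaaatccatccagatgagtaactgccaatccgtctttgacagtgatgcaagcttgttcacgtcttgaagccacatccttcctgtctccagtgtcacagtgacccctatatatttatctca
Clec4e (chr6:123289872-123290121, - strand, 1 C/EBP match): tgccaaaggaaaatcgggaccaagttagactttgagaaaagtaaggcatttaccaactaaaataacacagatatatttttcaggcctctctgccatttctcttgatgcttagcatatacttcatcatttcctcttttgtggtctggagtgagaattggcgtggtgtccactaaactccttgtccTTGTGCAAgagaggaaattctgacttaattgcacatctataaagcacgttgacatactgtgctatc
Clec7a, start site 2 (chr6:129472786-129473035, - strand, no match): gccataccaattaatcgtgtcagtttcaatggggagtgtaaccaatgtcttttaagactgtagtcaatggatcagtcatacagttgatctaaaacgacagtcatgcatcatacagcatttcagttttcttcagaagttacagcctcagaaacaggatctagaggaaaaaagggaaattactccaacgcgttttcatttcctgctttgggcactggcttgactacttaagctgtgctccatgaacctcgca

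Nlrp3 lies at chr11:59541568-59566956 on the + strand, Clec4e at chr6:123281789-123289870 and Clec7a at chr6:129461591-129472779, both on the - strand (GRCm38). Il1b (chr2:129364570-129371139) and Il1a (chr2:129299610-129309972) are both on the - strand of the chromosome that also carries Il1rn (chr2:24336853-24351494, + strand). Il1r2 lies at chr1:40074079-40125231, Il18 at chr9:50554827-50581840 and Casp1 at chr9:5298517-5307265, all on the + strand. The printed windows lie just upstream of RefSeq start sites of these genes. The window of the other Clec7a start site, which overlaps the printed one, also had no match.

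For 7 of the 9 genes neutrophil-like cells stood highest in CPM, as the plot of levels by class shows. Il1b averaged 11336 ± 826 CPM in neutrophil-like cells (SD, n = 4 mice), with every mouse above every mouse of the class ranked next. The classes after it were cDC2-like cells at 1806 ± 301 CPM, monocyte-like cells at 1715 ± 505, migratory dendritic cell-like cells at 1128 ± 529, macrophage-like cells at 976 ± 548 and cDC1-like cells at 572 ± 96.4, and the mice of neighbouring classes overlapped within that run. Naive CD4 T cell-like cells, which should not make the cytokine, had 5.39 CPM of Il1b, taken as the background in these droplets. Nlrp3 was at 2461 ± 525 CPM in neutrophil-like cells, 359 ± 34.5 in monocyte-like cells, 279 ± 48.0 in cDC2-like cells, 222 ± 136 in macrophage-like cells and 74.4 ± 17.1 in cDC1-like cells. Only the step from neutrophil-like to monocyte-like cells in that order of Nlrp3 had no overlap between mice. The order leaves out mast cell or basophil-like cells (260 ± 200 CPM), a class of 22 cells.

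**Figure D1:**
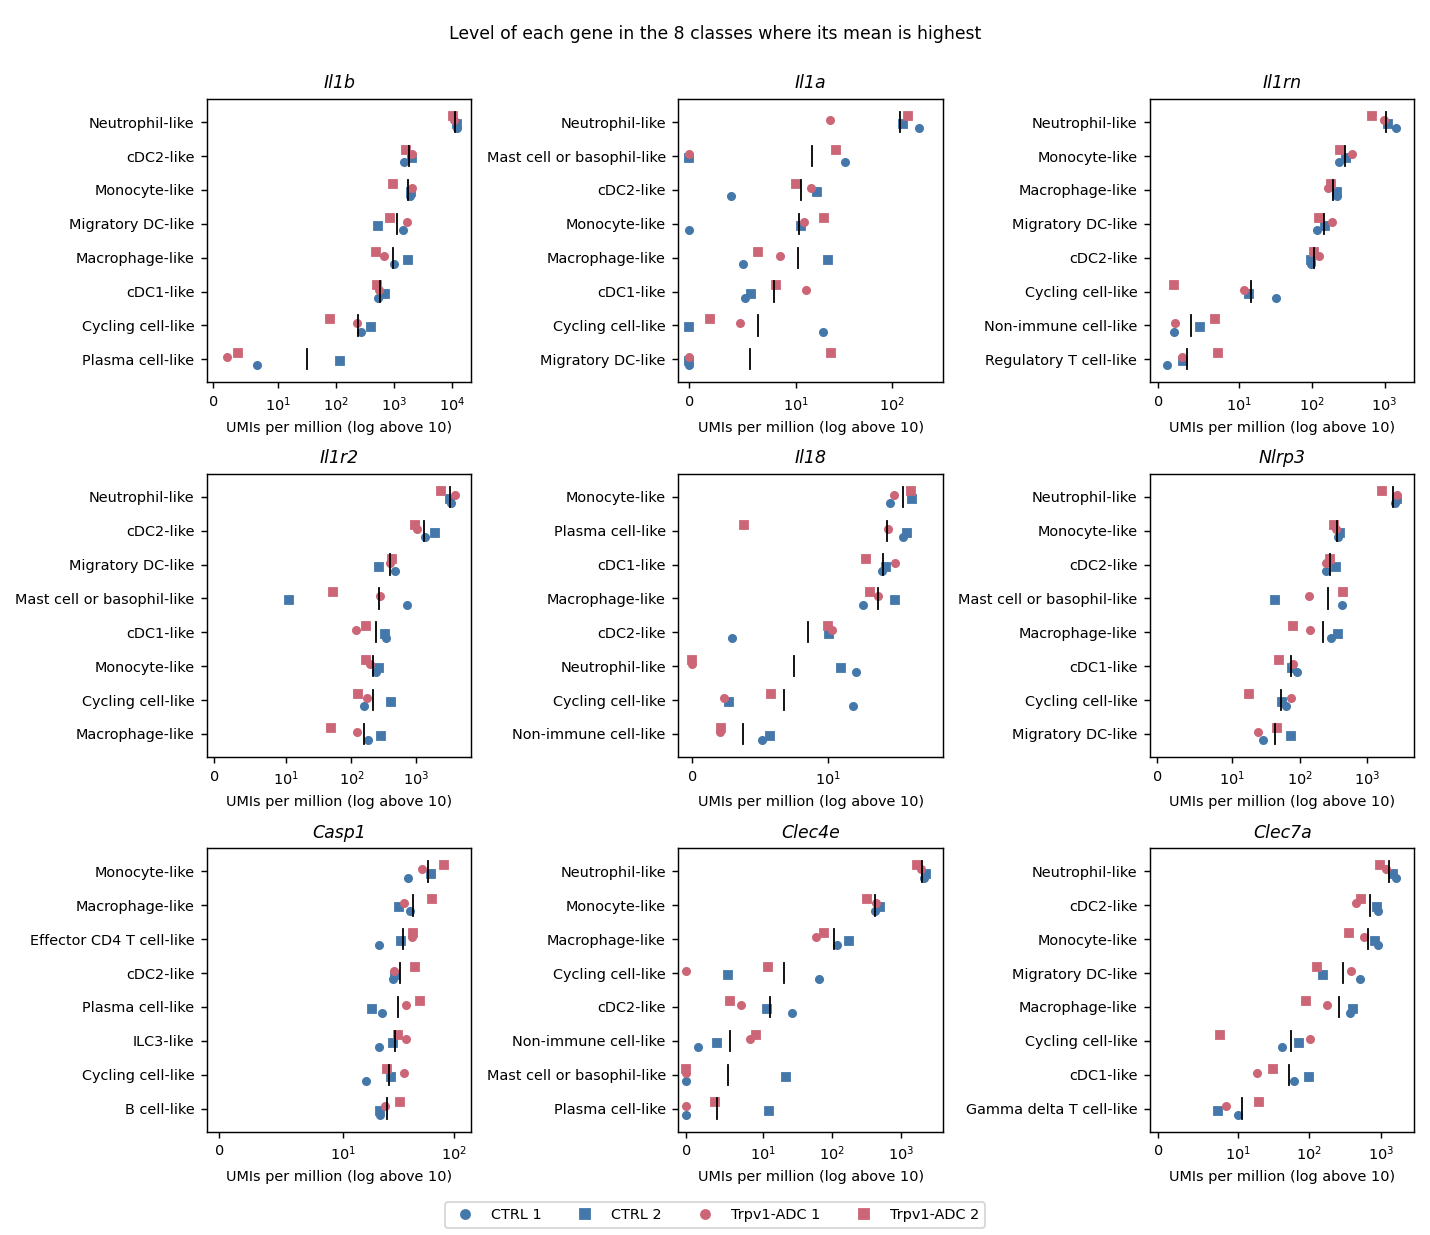
Level of each of the 9 genes in the 8 classes where its mean was highest (x axis, CPM, linear up to 10 and logarithmic above; y axis, class). Points are the 4 mice and vertical ticks their mean; neutrophil-like cells lead for Il1b, Il1a, Il1rn, Il1r2, Nlrp3, Clec4e and Clec7a, and monocyte-like cells for Il18 and Casp1.

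The 2 lectin receptors differed in how far they reached beyond neutrophil-like cells. Clec4e was at 1989 ± 258 CPM in neutrophil-like cells, 419 ± 71.6 in monocyte-like cells and 106 ± 50.9 in macrophage-like cells, and the first 2 of these classes each stood above the next in all 4 mice. In cDC2-like cells Clec4e was at 12.8 ± 9.58 CPM. Clec7a was at 1318 ± 302 CPM in neutrophil-like cells, 696 ± 239 in cDC2-like cells, 670 ± 244 in monocyte-like cells, 292 ± 182 in migratory dendritic cell-like cells, 262 ± 152 in macrophage-like cells and 52.4 ± 35.3 in cDC1-like cells. Clec7a in cDC2-like and monocyte-like cells did not differ beyond the spread between mice. Counted per cell, neutrophil-like cells did not lead for Clec7a: 100 of them held 406 of its UMIs. The 262 cDC2-like cells held 2238 and the 454 monocyte-like cells 2276.

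In CPM the brakes on interleukin 1 were also highest in neutrophil-like cells. Il1r2 averaged 3246 ± 643 CPM there and 1326 ± 445 CPM in cDC2-like cells, which stood above migratory dendritic cell-like cells (387 ± 85.7 CPM) in all 4 mice. The cDC2-like cells (262 cells, median 10693 to 11472 UMIs per cell by mouse) held 40.9% of all 10128 Il1r2 UMIs, against 9.27% in neutrophil-like cells (100 cells, 2612 to 2944 UMIs). These were 4144 and 939 UMIs, so that per cell cDC2-like cells held more Il1r2 than neutrophil-like cells. Mast cell or basophil-like cells were at 263 ± 322 CPM of Il1r2, on 43 UMIs, and cycling cell-like cells at 216 ± 129 CPM. Among T cell and B cell classes Il1r2 was at 77.3 ± 25.5 CPM in regulatory T cell-like cells and 57.8 ± 3.0 CPM in B cell-like cells. Naive CD4 T cell-like cells had 3.96 CPM. Il1rn was at 1047 ± 321 CPM in neutrophil-like cells, 285 ± 56.3 in monocyte-like cells and 199 ± 28.9 in macrophage-like cells, and cDC1-like cells were almost without it at 1.30 CPM.

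Il1a, Il18 and Casp1 were measured at low depth. The kept cells held 299 Il1a UMIs in all, and neutrophil-like cells (121 ± 70.3 CPM) led with wide spread between mice. Il18 was highest in monocyte-like cells at 40.9 ± 8.62 CPM, followed by plasma cell-like cells at 30.1 ± 18.4, cDC1-like cells at 28.3 ± 6.30 and macrophage-like cells at 25.5 ± 7.03, and these 4 classes overlapped. Casp1 was spread most evenly: it was at 58.5 ± 18.2 CPM in monocyte-like cells, 42.9 ± 13.8 in macrophage-like cells, 34.9 ± 10.1 in effector CD4 T cell-like cells and 32.8 ± 7.76 in cDC2-like cells, with overlap at each step. In neutrophil-like cells Casp1 had only 4 UMIs in all, 2 in each CTRL mouse and 0 in each Trpv1-ADC mouse.

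The share of a gene's UMIs found in the 6 myeloid classes (the 5 above and migratory dendritic cell-like cells) separated Casp1 from the others. It was 88.1% for Il1b, 88.1% for Clec7a, 85.9% for Nlrp3, 82.1% for Clec4e, 79.1% for Il1rn and 74.0% for Il1r2. For Il1a it was 54.5% and for Il18 48.4%, while for Casp1 it was 23.1%, below the 29.5% of Casp1 UMIs in T cell classes. A small myeloid cluster of 118 cells led by Retnla, Lyz1 and Fn1, which could not be named, held 16.4% of the Il1a UMIs.

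Cells were thinned to 1500 UMIs each so that the share of cells with a UMI of a gene could be compared between classes. At that depth Il1b was seen in 96.1% of neutrophil-like cells (mean over 4 mice), 68.8% of cDC2-like, 62.6% of monocyte-like, 45.4% of macrophage-like and 36.9% of cDC1-like cells, against 0.839% of naive CD4 T cell-like cells. Without thinning the Il1b shares were 97.8%, 84.9%, 80.2%, 64.0%, 73.5% and 2.96%. Thinning left out 5 of 100 neutrophil-like, 11 of 454 monocyte-like, 33 of 470 macrophage-like and 16 of 3080 naive CD4 T cell-like cells, and no cDC1-like or cDC2-like cell. Il1r2 was seen in 7.46% of regulatory T cell-like and 6.14% of B cell-like cells after thinning, and in 0.521% of naive CD4 T cell-like cells. Unthinned, those Il1r2 shares were 18.8%, 15.8% and 2.15%.

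**Figure D2:**
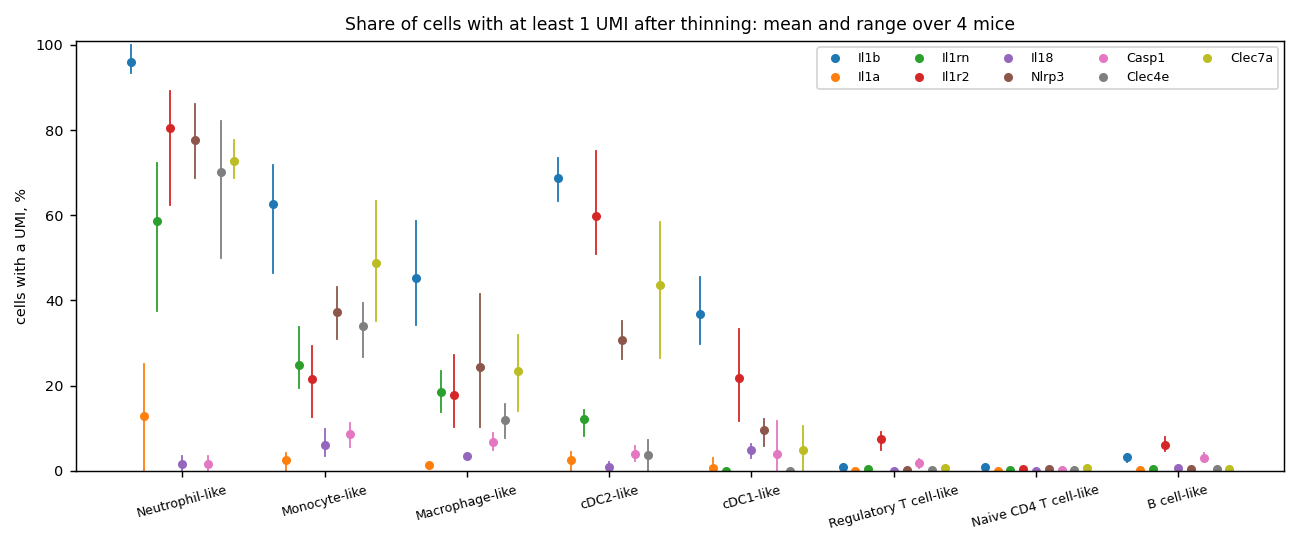
Share of cells with at least 1 UMI of each gene after thinning to 1500 UMIs per cell (y axis, percent; x axis, class). Points are means and lines the range over 4 mice; Il1b reaches 96.1% in neutrophil-like cells and every gene is near 0 in naive CD4 T cell-like cells.

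Il1b was concentrated in few cells in some classes. In macrophage-like cells the 10% of cells with most Il1b held 65.4% of its UMIs in CTRL 1, 48.4% in CTRL 2, 65.3% in Trpv1-ADC 1 and 42.2% in Trpv1-ADC 2, and the median macrophage-like cell held 1, 3, 1 and 2 Il1b UMIs. In neutrophil-like cells those top cells held 30.6% to 35.0% and the median cell held 22 to 32 Il1b UMIs. The most loaded single cells reached 152 Il1b UMIs in cDC2-like cells and 142 in neutrophil-like cells. The groups overlapped in macrophage-like cells, so the part of the top cells did not follow the group there.

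Genes whose level over the 20 classes was most like that of Il1b were Gm34084 (Pearson r = 0.974 of mean log2 CPM over 20 classes, among 4560 genes compared), Gm14548 (0.969), Ptafr, the receptor for platelet-activating factor (0.967), Mefv, which encodes the inflammasome protein pyrin (0.965), and Lilra6 (0.959). For Nlrp3 they were Cd300a (0.980), Gpr141 (0.952), the member Il1a (0.947), Olr1 (0.944) and Alox5ap, needed to make leukotrienes (0.940). For Clec4e they were Trem3 (0.962), the neutrophil growth factor receptor Csf3r (0.957), Clec5a (0.950), Msrb1 (0.949) and Clec4d, a lectin that pairs with Clec4e (0.947). All 15 peaked in neutrophil-like cells, the classes share libraries and depth, and the correlations are given as a description.

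Trpv1-ADC and CTRL mice were then compared within each class, on UMIs summed per mouse, with edgeR's quasi-likelihood test and Benjamini-Hochberg adjustment over all genes tested in that class; "called" means an adjusted p under 0.05. With 2 mice a group the p-values measure the spread between these 4 animals. Clec7a fell in both conventional dendritic cell classes and Il1r2 fell in cDC1-like cells. These were the 3 member calls in single classes, and no member rose. In cDC2-like cells 1 of 7 members tested was called, where 0.0715% of all genes were called. In cDC1-like cells 2 of 6 members tested were called, where 0.87% of all genes were.

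Clec7a in cDC2-like cells was at 909 CPM in CTRL 1 and 895 in CTRL 2, and at 455 in Trpv1-ADC 1 and 526 in Trpv1-ADC 2. Both Trpv1-ADC mice were below both CTRL mice by a wide margin, and the log2 fold change was -0.89 ± 0.13 (SE, edgeR adjusted p = 0.0328). In cDC1-like cells, where Clec7a is far scarcer, it was at 61.5 and 98.0 CPM in CTRL 1 and 2 and at 18.8 and 31.1 CPM in Trpv1-ADC 1 and 2. The groups again did not overlap, and the log2 fold change was -1.67 ± 0.34 (edgeR adjusted p = 0.0387). The call in cDC1-like cells ended without CTRL 2 (-1.27, edgeR adjusted p = 0.198). The call in cDC2-like cells held without each mouse in turn, in fits that leave 1 mouse in a group. It ended when mice were assigned with HTODemux, Seurat's caller for hashtags (-1.08, edgeR adjusted p = 0.137).

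Clec7a had the same order of groups in monocyte-like and neutrophil-like cells, without a call. In monocyte-like cells it was at 901 and 825 CPM in CTRL 1 and 2 and at 590 and 362 CPM in Trpv1-ADC 1 and 2, a log2 fold change of -0.82 ± 0.19 (edgeR adjusted p = 0.0626). The Clec7a estimate there was -1.20 without Trpv1-ADC 1 and -0.52 without Trpv1-ADC 2, in fits that leave 1 Trpv1-ADC mouse. In neutrophil-like cells it was at 1647 and 1467 CPM against 1197 and 959 CPM, a log2 fold change of -0.49 ± 0.27. The neutrophil-like fit was added after the data were seen, since its Trpv1-ADC mice hold only 15 and 16 cells. Whether the size of the Clec7a difference varied between classes was not tested.

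The share of cells with Clec7a after thinning moved with its level in part of these classes. In monocyte-like cells it was 56.3% and 63.4% in CTRL 1 and 2 and 40.4% and 35.2% in Trpv1-ADC 1 and 2. In cDC2-like cells the Clec7a shares were 58.3%, 47.1%, 26.5% and 42.6% in the same order, so that both Trpv1-ADC mice were below both CTRL mice in each of these classes. Unthinned, the group means of the Clec7a share were 87.6% and 76.9% in monocyte-like cells, and 82.1% and 69.5% in cDC2-like cells. The Clec7a shares overlapped in neutrophil-like and cDC1-like cells. After thinning they were 77.8% and 71.4% against 73.3% and 68.8% in neutrophil-like cells. In cDC1-like cells they were 2.13% and 10.5% against 0% and 7.14%. The value of 0 rests on 34 cells.

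Split by cluster, cDC2-like cells were uneven for Clec7a. In the larger of the 2 cDC2-like clusters (170 cells) it was at 957 and 1094 CPM in CTRL 1 and 2 against 317 and 616 CPM in Trpv1-ADC 1 and 2. In the smaller (92 cells) it was at 849 and 618 CPM against 722 and 393 CPM, and there the groups overlapped. Among monocyte-like clusters Clec7a was at 845 and 847 CPM against 403 and 314 in one (69, 61, 54 and 38 cells by mouse). In the next (86, 42, 25 and 9 cells) it was at 923 and 568 CPM against 462 and 349. In the third (10, 21, 15 and 24 cells) it was at 1090 and 1224 CPM against 1231 and 437. Only the third had a Trpv1-ADC mouse at the level of the CTRL mice.

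Clec4e, the other lectin receptor, was not called in monocyte-like or neutrophil-like cells. In monocyte-like cells it was at 422 and 496 CPM in CTRL 1 and 2 and at 435 and 323 CPM in Trpv1-ADC 1 and 2, groups that overlapped (log2 fold change -0.24 ± 0.16). In neutrophil-like cells it was at 2151 and 2238 CPM against 1898 and 1668 CPM, with no overlap and a log2 fold change of -0.26 ± 0.25.

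**Figure D3:**
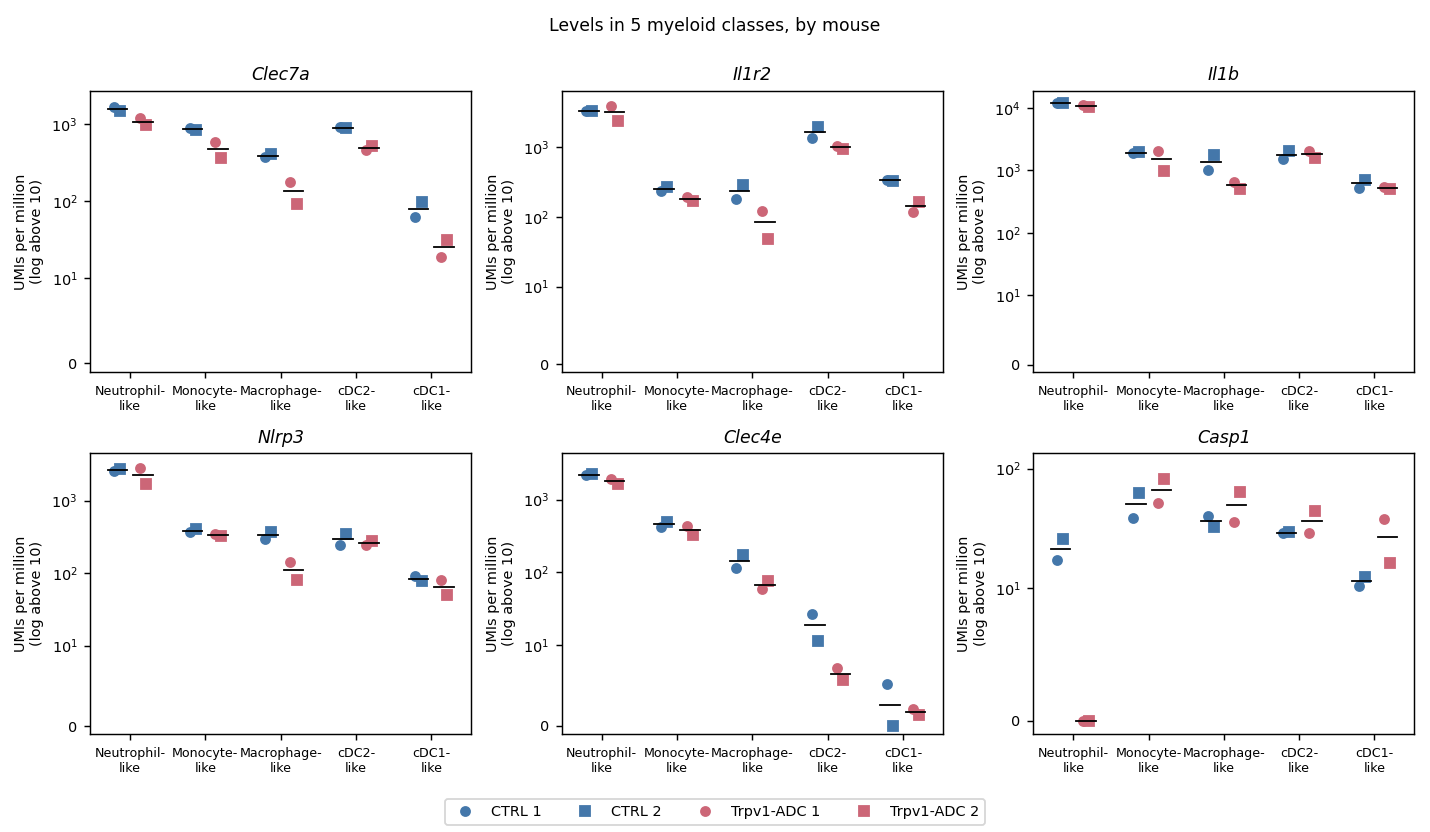
Level of 6 members in the 5 myeloid classes for each mouse (y axis, CPM, linear up to 10 and logarithmic above; x axis, class). Points are mice and bars group means. Clec7a of both Trpv1-ADC mice lies below both CTRL mice in all 5 classes, whereas Il1b overlaps in cDC2-like and monocyte-like cells. Macrophage-like cells, among the 5, are the class that chose the members and are only described.

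Il1r2, the decoy receptor, was at 339 and 333 CPM in cDC1-like cells of CTRL 1 and 2 and at 119 and 165 CPM in Trpv1-ADC 1 and 2. The CTRL mice were alike and both Trpv1-ADC mice were well below them, a log2 fold change of -1.25 ± 0.20 (edgeR adjusted p = 0.00838). The call ended at a clustering resolution of 2 (-0.92, edgeR adjusted p = 0.105). The share of cDC1-like cells with an Il1r2 UMI after thinning was 25.5% and 33.3% against 11.8% and 16.7%. Unthinned, the mean Il1r2 share was 78.3% in CTRL and 40.3% in Trpv1-ADC mice.

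In cDC2-like cells, the class with the largest share of Il1r2 UMIs, the level was 1372 and 1937 CPM against 1036 and 958 CPM. The groups did not overlap there, but the CTRL mice differed from each other and the log2 fold change of -0.75 ± 0.17 was not called (edgeR adjusted p = 0.389). Without CTRL 1, in a fit that leaves 1 CTRL mouse, the estimate was -1.01. In monocyte-like cells Il1r2 was at 238 and 268 CPM against 193 and 169 CPM, also without overlap and not called (-0.45 ± 0.17, edgeR adjusted p = 0.256). In neutrophil-like cells, at 3345 and 3332 CPM against 3931 and 2377 CPM, Trpv1-ADC 1 was the highest and Trpv1-ADC 2 the lowest of the 4 mice.

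Il1rn, the receptor antagonist, showed no common direction. In monocyte-like cells it was at 236 and 300 CPM in CTRL 1 and 2 and at 358 and 245 CPM in Trpv1-ADC 1 and 2, which overlapped (log2 fold change 0.21 ± 0.19). In cDC2-like cells the Il1rn levels were 98.8 and 97.4 CPM against 128 and 106 CPM (0.23 ± 0.20), and in neutrophil-like cells 1442 and 1106 CPM against 971 and 667 CPM (-0.61 ± 0.31). The groups did not overlap in the last 2 classes, and no Il1rn difference was called.

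No Il1b difference was called in dendritic cell classes. In cDC2-like cells it was at 1511 and 2064 CPM in CTRL 1 and 2 and at 2068 and 1582 CPM in Trpv1-ADC 1 and 2, and the log2 fold change was 0.01 ± 0.20. In cDC1-like cells it was at 525 and 714 CPM against 548 and 501 CPM (-0.27 ± 0.17). Monocyte-like cells had 1867 and 1946 CPM against 2079 and 970 CPM, so that Trpv1-ADC 1 was the highest and Trpv1-ADC 2 the lowest mouse (-0.29 ± 0.46). That monocyte estimate for Il1b turned on which mouse was left out: it was -0.92 without Trpv1-ADC 1 and 0.15 without Trpv1-ADC 2. Each of these fits leaves 1 Trpv1-ADC mouse. In neutrophil-like cells Il1b was at 12110 and 11938 CPM against 10911 and 10386 CPM, without overlap, at a log2 fold change of -0.13 ± 0.21. A p-value above the threshold does not show equal levels, and with 2 mice a group differences of the size of these standard errors were not detectable.

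Nlrp3 was at 369 and 402 CPM in monocyte-like cells of CTRL 1 and 2 and at 341 and 323 CPM in Trpv1-ADC 1 and 2, a small difference without overlap (log2 fold change -0.18 ± 0.15). In cDC2-like cells it was at 244 and 346 CPM against 245 and 280 CPM, which overlapped (-0.18 ± 0.20), and in cDC1-like cells at 90.3 and 77.8 CPM against 79.4 and 50.1 CPM (-0.43 ± 0.28). None of these Nlrp3 differences was called. The sign of the Nlrp3 estimate turned in monocyte-like cells under HTODemux (0.039) and under a stricter cell filter (0.080), in cDC2-like cells without CTRL 2 (0.11), and in neutrophil-like cells without Trpv1-ADC 2 (0.052) and without removal of doublets (0.048).

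Casp1 had estimates above 0 in each of the 11 classes where it was tested, macrophage-like cells among them; the 11 estimates share 4 mice and are not separate evidence. No Casp1 difference was called in the other classes. In cDC1-like cells it was at 10.5 and 12.5 CPM in CTRL 1 and 2 and at 37.6 and 16.2 CPM in Trpv1-ADC 1 and 2, both above the CTRL mice (log2 fold change 1.10 ± 0.51, edgeR adjusted p = 0.462). In monocyte-like cells it was at 38.8 and 62.2 CPM against 51.3 and 81.7 CPM, which overlapped (0.43 ± 0.30). The Casp1 sign turned in monocyte-like cells under HTODemux (-0.034) and without Trpv1-ADC 2 in macrophage-like (-0.040) and cDC2-like cells (-0.011).

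In monocyte-like cells no member of 8 tested was called by edgeR and DESeq2 called 1, where edgeR called 1.02% of all genes. An unadjusted edgeR p under 0.05 was found for 2 members, and for 929 of all 7092 genes tested there. In neutrophil-like cells no member of 6 tested was called by edgeR or DESeq2 and none had an unadjusted p under 0.05, where 0.177% of all genes were called. Across the 10 other classes with enough cells, 35 pairs of member and class were tested and edgeR called none, as did DESeq2, while 7 had an unadjusted p under 0.05. Of all genes tested in those 10 classes 1.17% were called. An unadjusted p under 0.05 came up more often, from 673 of 10652 genes in naive CD8 T cell-like cells to 2484 of 10615 in intraepithelial-type T cell-like cells. Of the 7 pairs, 4 were in non-immune cell-like cells, where 857 of 11330 genes had such a p.

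**Figure D4:**
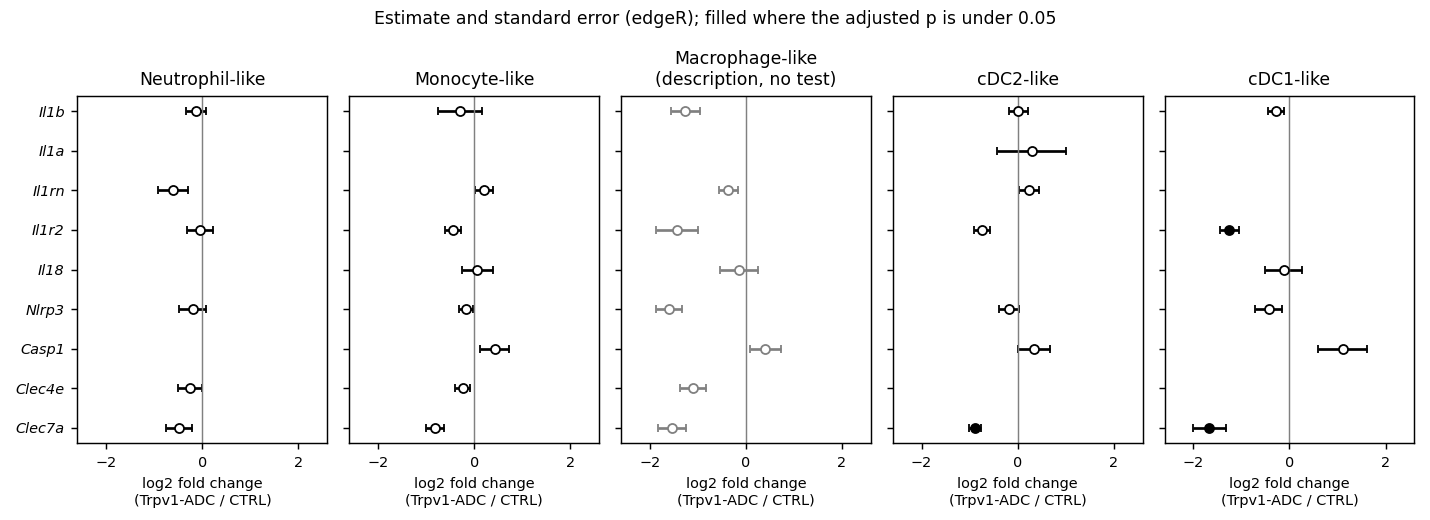
Estimated log2 fold change, Trpv1-ADC over CTRL (x axis), for each member tested (y axis) in 5 myeloid classes. Points are edgeR estimates and bars 1 standard error on each side; the macrophage-like panel is grey, a description with no test. Filled points in the other panels have an adjusted p under 0.05: Clec7a in cDC2-like and cDC1-like cells and Il1r2 in cDC1-like cells.

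Macrophage-like cells are the class in which the members were noticed, so their values are listed without a test. Nlrp3 was at 296 and 373 CPM in CTRL 1 and 2 and at 141 and 79.8 CPM in Trpv1-ADC 1 and 2, and Il1b at 1013 and 1732 CPM against 662 and 497 CPM. Clec4e was at 116 and 174 CPM against 59.2 and 75.9 CPM, Clec7a at 373 and 406 CPM against 178 and 90.1 CPM, and Il1r2 at 182 and 283 CPM against 122 and 47.6 CPM. For each of these 5 genes both Trpv1-ADC mice were below both CTRL mice, with estimated log2 fold changes of -1.60 ± 0.28, -1.26 ± 0.30, -1.10 ± 0.27, -1.54 ± 0.29 and -1.44 ± 0.44 in the order given. Il1rn (-0.37 ± 0.20), Il18 (-0.15 ± 0.40) and Casp1 (0.40 ± 0.32) had estimates closer to 0. Of these, Il1rn was also lower in both Trpv1-ADC mice than in both CTRL mice (group means 174 and 223 CPM). Of all genes tested in this class edgeR called 0.012%, from which nothing is read here, because this contrast chose the members.

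The macrophage-like class joined 4 clusters that were unevenly filled by the mice, and within them the members are again only described. Cells of CTRL 1, CTRL 2, Trpv1-ADC 1 and Trpv1-ADC 2 numbered 19, 27, 50 and 41 in the cluster led by Saa3 and C1q genes, and 50, 15, 47 and 7 in that led by Ccl8 and Pf4. They numbered 76, 19, 14 and 7 in the cluster led by Adgre1 and Mrc1 (median 2452.5 UMIs per cell), and 42, 14, 17 and 25 in that led by C1q genes and Ms4a7. In this order of clusters Nlrp3 was at 405 and 481 CPM in CTRL 1 and 2 against 120 and 75.5 CPM in Trpv1-ADC 1 and 2, at 275 and 273 against 126 and 29.3 CPM, at 396 and 476 against 314 and 205 CPM, and at 234 and 214 against 167 and 86.6 CPM. The Nlrp3 groups were apart in each of the 4 clusters, which restates the values that chose the list. For Trpv1-ADC 2 the Ccl8 and Pf4 cluster rests on 7 cells with 68292 UMIs of all genes. Its Adgre1 and Mrc1 cluster rests on 7 cells with 19532 UMIs. Il1b was apart in the first (1923 and 2397 against 925 and 565 CPM) and the next (1144 and 811 against 278 and 103 CPM). It overlapped in the last 2, at 962 and 1577 against 560 and 1638 CPM and at 666 and 1411 against 863 and 447 CPM.

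The share of Il1b-positive macrophage-like cells that also had Nlrp3 was lower in both Trpv1-ADC mice, again as a description. After thinning, 42.5% and 56.1% of the cells with Il1b in CTRL 1 and 2 also had Nlrp3, against 16.7% and 11.4% in Trpv1-ADC 1 and 2. Among cells without Il1b the Nlrp3 shares were 18.3% and 20.7% against 17.3% and 9.30%. In monocyte-like cells with Il1b the Nlrp3 shares were 49.1% and 46.2% against 35.9% and 33.3%, and in cDC2-like cells 26.3% and 36.0% against 45.2% and 25.6%, which overlapped. These shares rest on 33 to 110 cells with Il1b per mouse in monocyte-like, 35 to 73 in macrophage-like and 31 to 57 in cDC2-like cells.

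Taken over all cells of a mouse, less of most of these genes was captured from Trpv1-ADC mice, and Il1r2 was called. A whole-sample sum cannot tell fewer cells of a class from less RNA per cell. Il1r2 was at 751 and 800.0 UMIs per 1000 cells in CTRL 1 and 2 and at 391 and 389 in Trpv1-ADC 1 and 2, a log2 fold change in CPM of -0.89 ± 0.07 (edgeR adjusted p = 0.0350). It was the member called of 9 tested over all cells, where 0.245% of all genes were called, and it was not called without Trpv1-ADC 1 (-0.93, edgeR adjusted p = 0.0718), without Trpv1-ADC 2 (-0.86, 0.0542) or with robust estimation off (-0.89, 0.0667). With the macrophage-like cells left out, a fit added after the data were seen, Il1r2 (-0.87 ± 0.07, edgeR adjusted p = 0.0311) and Nlrp3 (-0.89 ± 0.10, edgeR adjusted p = 0.0372) were called, where 0.482% of all genes were. The Nlrp3 call ended without Trpv1-ADC 2 (-0.81, edgeR adjusted p = 0.0651) and with robust estimation off (0.0617), as did the Il1r2 call with robust estimation off (0.0562). Clec7a (-1.32 ± 0.19, edgeR adjusted p = 0.0718) and Il18 (-0.94 ± 0.17, edgeR adjusted p = 0.0718) were not called. Leaving out CTRL 2 put Clec7a at -1.48, and leaving out Trpv1-ADC 1 put Il1b at -0.99, in fits with 1 mouse in a group.

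The myeloid classes were smaller shares of the cells kept in Trpv1-ADC mice. Neutrophil-like cells were 0.803% ± 0.152 of cells in CTRL and 0.346% ± 0.010 in Trpv1-ADC mice (SD, n = 2 mice each), and monocyte-like cells 3.37% ± 0.55 and 1.84% ± 0.39. cDC2-like cells were 1.77% ± 0.20 and 1.23% ± 0.17, and cDC1-like cells 1.22% ± 0.21 and 0.847% ± 0.113. In these 4 classes the groups did not overlap, at the smallest p that an exact two-sided permutation test of 2 against 2 mice allows (0.333). Macrophage-like cells, at 3.03% ± 1.74 and 2.33% ± 0.79, overlapped (exact permutation p = 0.667). Without removal of doublets the difference in monocyte-like cells shrank to -0.13 percentage points.

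With every mouse given the same mean class shares, the differences shrank to different degrees. Clec7a went from 687 and 521 UMIs per 1000 cells in CTRL 1 and 2 against 254 and 189 in Trpv1-ADC 1 and 2 as sorted, to 498 and 504 against 313 and 243 at equal shares. On the log2 scale its ratio moved from -1.45 to -0.85 and the groups stayed apart. At equal shares the groups also stayed apart for Il1r2 (from -0.99 to -0.53), Nlrp3 (from -1.10 to -0.47), Clec4e (from -1.16 to -0.41) and Il18 (from -0.93 to -0.41). Within monocyte-like and cDC1-like cells the Il18 estimates were 0.07 ± 0.32 and -0.12 ± 0.39, neither called. Unnamed cells, which join 10 clusters, were taken as 1 class, so their mix was not made equal. They held 15.8% of the Il18 UMIs, and plasma cell-like cells, too few to test, 15.2%. For Il1b (from -0.92 to -0.32), Il1rn (from -0.69 to -0.11) and Il1a (from -0.56 to -0.12) the groups overlapped at equal shares. Casp1 was at 110 and 138 against 116 and 133 UMIs per 1000 cells as sorted, and its ratio at equal shares was 0.33, with overlap. How many of all genes stay apart at equal shares was not computed, so nothing is read from the number of members that do.

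Those sums include macrophage-like cells, the class that chose the members. With that class left out, a version added after the data were seen, Clec7a at equal shares was at 447 and 422 UMIs per 1000 cells in CTRL 1 and 2 against 286 and 226 in Trpv1-ADC 1 and 2 (log2 ratio -0.77). Nlrp3 was at 223 and 238 against 196 and 187 (-0.27) and Clec4e at 165 and 159 against 140 and 118 (-0.33). The groups stayed apart for these 3 genes and for Il1r2 (-0.48) and Il18 (-0.47). They overlapped for Il1b (-0.18), Il1rn (-0.097), Il1a (-0.023) and Casp1 (0.30). The share of all genes that stay apart was not computed here either, and the values are a description.

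**Figure D5:**
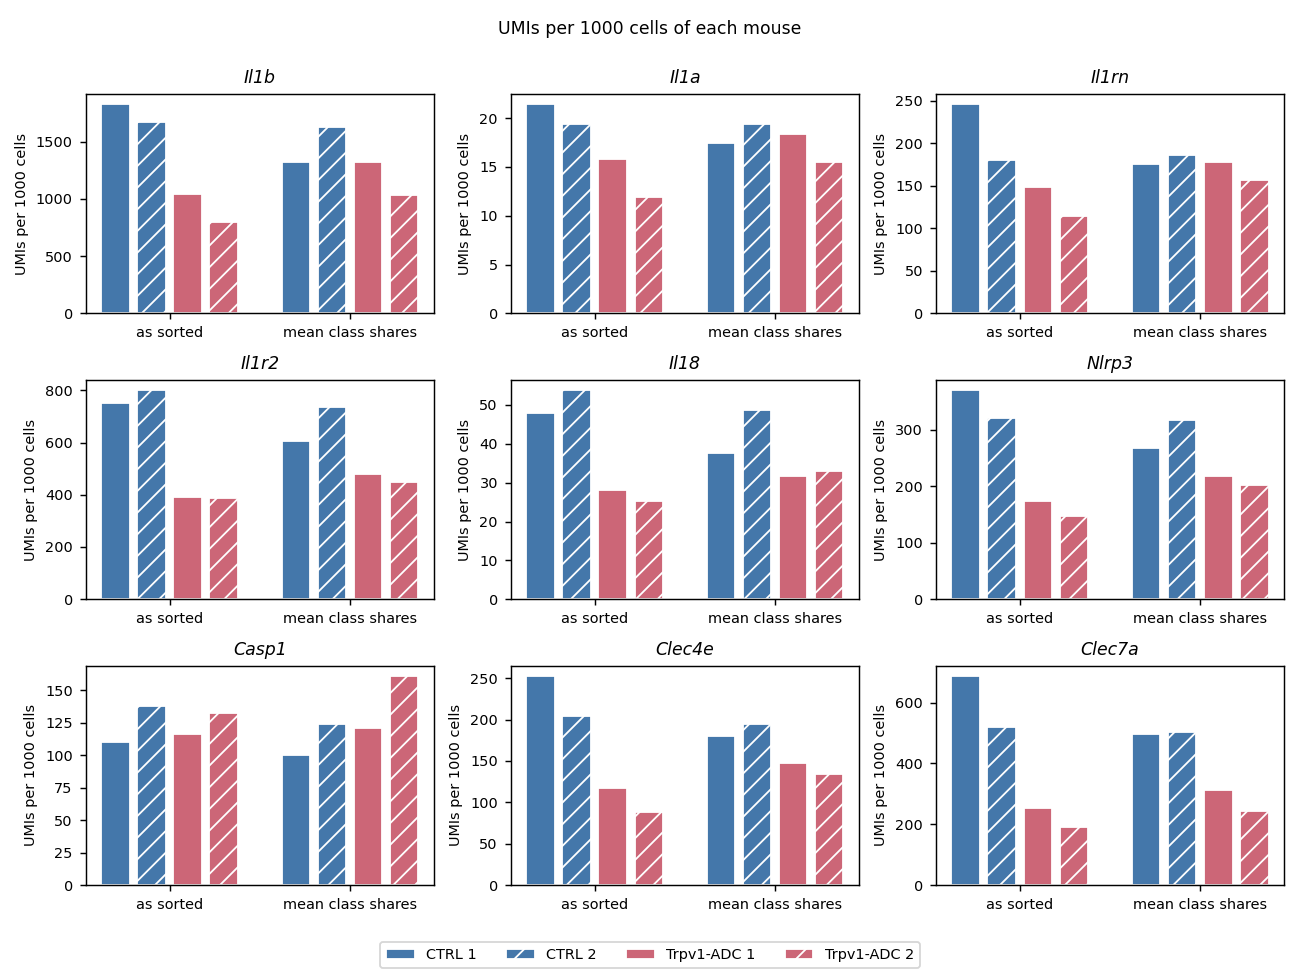
UMIs of each gene per 1000 cells of each mouse (y axis), as sorted and with every mouse given the mean class shares of the 4 mice (x axis). Bars are single mice; Clec7a stays lower in both Trpv1-ADC mice at equal shares (313 and 243 against 498 and 504), while Il1b overlaps.

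Other genes of the same pathways were looked up in 6 lists. In the 5 myeloid classes none of their tested members was called: in monocyte-like cells, for example, 0 of 16 inflammasome genes (median log2 fold change 0.03), 0 of 10 other myeloid C-type lectins (median -0.33, 9 below 0) and 0 of 16 Toll-like receptor and priming genes (median -0.12), beside a median of 0.01 over all genes tested there. In cDC2-like cells 0 of 9 genes of C-type lectin signalling (median 0.25) and 0 of 8 other myeloid C-type lectins (median 0.11) were called. Elsewhere 8 list genes were called, in 3 classes.

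In ILC2-like cells, where 0.126% of all genes were called, Il1rl1, the interleukin 33 receptor, fell (-1.60 ± 0.26, edgeR adjusted p = 0.0148), the 1 called of 4 genes tested in the list of interleukin 1 family ligands and receptors. In regulatory T cell-like cells, where 0.877% of all genes were called, 1 of 7 genes of that list fell, Il18rap, a chain of the interleukin 18 receptor (-0.82 ± 0.21, edgeR adjusted p = 0.0464). Nfkbiz, a nuclear regulator of NF-kappaB target genes, fell there as 1 of 10 Toll-like receptor and priming genes (-0.55 ± 0.11, edgeR adjusted p = 0.0112).

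In intraepithelial-type T cell-like cells 7.87% of all genes were called, and list genes went both ways. Irak2, a kinase of interleukin 1 receptor signalling, fell (-0.71 ± 0.13, edgeR adjusted p = 0.00623; 1 of 10 tested in its list), as did Tnfaip3, a brake on NF-kappaB (-0.69 ± 0.11, 0.00228; 1 of 9). P2rx7, the ATP receptor upstream of NLRP3, rose (0.80 ± 0.17, edgeR adjusted p = 0.0149; 1 of 12). Of 8 tested genes of C-type lectin signalling 2 rose, the phospholipase Plcg2 (0.65 ± 0.17, edgeR adjusted p = 0.0369) and the exchange factor Vav1 (0.52 ± 0.14, 0.0400).

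Summed levels of genes that respond to tissue dissociation moved with the groups in several of these classes. The summed level of 15 immediate early and heat shock genes in monocyte-like cells was 11798 and 12256 CPM in CTRL 1 and 2 and 18079 and 19140 CPM in Trpv1-ADC 1 and 2, with 7 of 15 called higher and 0 lower, where 1.02% of all genes were called. It was 8355 and 7801 CPM against 10818 and 11120 CPM in cDC1-like cells (3 of 15 higher and 1 lower, beside 0.87% of all genes) and 7281 and 9079 CPM against 10273 and 11451 CPM in cDC2-like cells (1 of 15 higher and 0 lower, beside 0.0715%). In neutrophil-like cells it was 17632 and 15784 CPM against 25798 and 25172 CPM, and 1 of 15, the heat shock gene Hspa1a, was called higher (2.77 ± 0.39, edgeR adjusted p = 0.0343, beside 0.177%). In macrophage-like cells, with no call, the sum was 18403 and 19449 CPM against 20986 and 14633 CPM. In cDC1-like cells the sum rose although most of the list did not: 8 of 15 had estimates below 0 (median log2 fold change -0.21). Estimates below 0 numbered 3 of 15 in monocyte-like cells, 5 of 15 in cDC2-like cells and 1 of 15 in neutrophil-like cells. The part of these genes in the Clec7a and Il1r2 results was not tested.

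RNA carried over from neutrophil-like cells, which had the highest levels of 7 members, was read from S100a8 and S100a9. In cDC1-like and cDC2-like cells both markers were at or below 5.13 CPM in each mouse, against at least 23110 CPM in neutrophil-like cells. The 9 neutrophil markers summed to 66.8 and 57.6 CPM against 89.9 and 77.2 CPM in cDC1-like cells, with 3 of 9 at 0, and to 111 and 129 CPM against 194 and 136 CPM in cDC2-like cells, with 1 of 9 at 0. B cell markers moved with Clec7a in cDC2-like cells: 10 of them summed to 168 and 99.98 CPM in CTRL 1 and 2 and to 48.6 and 50.2 CPM in Trpv1-ADC 1 and 2, with 7 of 10 below both CTRL mice and 0 of 10 at 0. After thinning, Clec7a was seen in 0.529% of B cell-like cells. The part of neutrophil and B cell RNA in the Clec7a and Il1r2 results was not tested.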

How the data were processed

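The deposited expression table is of unnormalised UMI counts for each gene in each barcode, and the deposited hashtag table gives unnormalised counts for each tag, with 4 mice pooled in 1 run. The authors' processing used Cell Ranger, Seurat and build mm10, per the submitters' processing notes; versions and barcode selection are not given in the sources used here, whether tag counts are UMIs is not stated, and both 5' and 3' chemistry appear in the labels, which changes how far a gene is captured. The top tag (at least 10 counts and 3 times the next) gave the mouse. Cells with at least 500 UMIs, 200 genes and no more than 10% of UMIs from mitochondrial genes were retained (22729, of which 19571 had 1 mouse), and Scrublet removed 2052 of these. Medians were 2612 to 17615 UMIs per cell across the 5 myeloid classes and mice. Cells were clustered (scanpy 1.11.5, leidenalg 0.10.2) without the 9 genes among the variable genes, and clusters named from 207 markers; the re-clustering of myeloid cells, the naming limits and the scoring of doublets in 1 pool were set after clusters were seen. Summed counts were fitted with edgeR 4.0.16 (TMM, filterByExpr, robust quasi-likelihood), with DESeq2 1.42.0 as an alternative. Only the edgeR fit was tested on simulated data. All 9 members are named, with list genes past the test (at most 6 per class) and the 5 genes most like Il1b, Nlrp3 and Clec4e. The members and lists were chosen with earlier results of these data known. Shares of cells carry counting error only. Barcodes with no mouse entered no comparison.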

Additional observations from a re-analysis of the deposited data

Results flagged for a closer look

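The hashtag table held 22446 counts of 11 hashtags that the labels do not name. These tags were not used to assign cells.

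Members were also counted in 3158 barcodes that passed the cell filter but had no single mouse by the tag rule, and which entered no comparison. Their median depth was 10087 UMIs, against 5776 in barcodes with a mouse, and 43.0% of them scored as doublets by Scrublet, against 10.5%. They held 6718 UMIs of Il1b (193 CPM, against 203 in barcodes with a mouse), 106 of Il1a, 954 of Il1rn and 3199 of Il1r2 (91.8 CPM against 87.0). They also held 339 UMIs of Il18 (9.73 CPM against 5.73), 1447 of Nlrp3, 778 of Casp1, 752 of Clec4e and 1805 of Clec7a (51.8 CPM against 60.5). No cell of this kind can be given to a group.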

How the results depend on the processing

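The calls are few and rest on 2 mice per group. Clec7a kept its direction under each alternative in the 5 myeloid classes, Il1r2 in monocyte-like, cDC2-like and cDC1-like cells. In cDC2-like cells Clec7a was called in 10 of 14 alternatives, and not with HTODemux (adjusted p = 0.137), without removal of doublets (-1.31, 0.451), with a stricter cell filter (-1.29, 0.170) or with the 9 genes kept among the variable genes (-1.24, 0.161). Il1r2 in cDC1-like cells was called in 13 of 14 and lost at clustering resolution 2 (-0.92, 0.105). Clec7a in cDC1-like cells was called in 9 of 13 (DESeq2 gave no adjusted p), and not without CTRL 2, with robust estimation off (0.0723), with HTODemux (-1.48, 0.274) or at resolution 2 (-1.44, 0.151). Clec7a in monocyte-like cells, not called in the report, was called in 8 of 14 (log2 fold change -1.25 to -0.52). Except where a value shows it, the cause of these changes was not tested.

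The number of members called moved as follows; counts in macrophage-like cells are given for completeness, and nothing is read from them, because that contrast chose the members. DESeq2 called 1 in monocyte-like, 4 in macrophage-like, 2 in cDC2-like and 1 in cDC1-like cells, 5 over all cells and 6 with macrophage-like cells left out. Without a filter on low counts there were 1, 5 and 2 calls in monocyte-like, macrophage-like and cDC2-like cells, 3 over all cells and 3 in the other classes. With robust estimation off there was 1 in cDC1-like cells and 0 over all cells with or without macrophage-like cells. HTODemux gave 1 in monocyte-like, 0 in cDC2-like and 1 in cDC1-like cells. Without removal of doublets there were 4 in monocyte-like cells, 0 in cDC2-like cells and 2 over all cells. A stricter cell filter gave 0 in cDC2-like cells, resolution 2 gave 1 in monocyte-like and 0 in cDC1-like cells, and keeping the members among the variable genes gave 1 in macrophage-like and 0 in cDC2-like cells. Leaving out 1 mouse gave 0 to 2 calls in monocyte-like, 0 to 4 in macrophage-like, 1 to 2 in cDC2-like and 1 to 2 in cDC1-like cells, 0 to 1 over all cells, 1 to 3 without macrophage-like cells and 0 to 5 in the other classes. A group left with 1 mouse is assumed to vary like the other.

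Mice with the same number correlated at -0.08 to 0.06 in their deviations from the group means, over all genes tested in a class. What the number stands for is not stated, and whether such mice share an effect on some genes was not tested. With the mouse number as a replicate block there was 1 member called in monocyte-like cells, 2 in cDC2-like cells, and 6 over all cells with or without macrophage-like cells.

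Estimates within 1 standard error of 0 were taken to have no direction. Those that crossed 0 were Il1b in monocyte-like (-0.92 to 0.15), neutrophil-like (up to 0.15) and cDC2-like cells (-0.23 to 0.28), Il1a (-0.51 to 1.58) in cDC2-like cells, Il1r2 in neutrophil-like cells (-0.43 to 0.25), Nlrp3 in cDC2-like (up to 0.11) and neutrophil-like cells (up to 0.052), Il18 in monocyte-like (-0.22 to 0.38), macrophage-like (-0.62 to 0.37) and cDC1-like cells (-0.58 to 0.29), and Casp1 over all cells (-0.064 to 0.29) and without macrophage-like cells (-0.11 to 0.31). Otherwise, signs turned for Il1rn in monocyte-like cells without Trpv1-ADC 1 (-0.069, with a range of -0.069 to 0.447 when 1 mouse was left out), with HTODemux (-0.35) and without removal of doublets (-0.17), for Nlrp3 there with HTODemux (0.039) and the stricter filter (0.080), for Casp1 there with HTODemux (-0.034) and for Clec4e there with the stricter filter (0.013). They also turned for Il1rn in macrophage-like cells with HTODemux (0.11), for Casp1 without Trpv1-ADC 2 in macrophage-like (-0.040, range -0.040 to 0.762 when 1 mouse was left out) and cDC2-like cells (-0.011, range -0.011 to 0.585), and for Clec4e in neutrophil-like cells without removal of doublets (0.14). Without removal of doublets the neutrophil-like level was 8415 CPM for Il1b, 2390 for Il1r2, 1880 for Nlrp3, 1408 for Clec4e and 999.97 for Clec7a. The share difference in macrophage-like cells was -1.97 points with HTODemux.

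Over all genes, edgeR's count in the report and DESeq2's were 46 and 681 over all cells, 1 and 56 in macrophage-like, 5 and 9 in cDC2-like and 2 and 4 in neutrophil-like cells. With no filter the count was 1057 over all cells, 210 against 72 in monocyte-like, 245 against 61 in cDC1-like, 90 in cDC2-like, 245 in macrophage-like and 14 in neutrophil-like cells. The replicate block gave 473 over all cells, 251 in monocyte-like and 66 in cDC2-like cells; robust estimation off gave 1 over all cells and 40 in cDC1-like cells. ILC3-like cells without removal of doublets could not be fitted. The neutrophil-like and all-but-macrophage fits, and the equal shares without macrophage-like cells, were chosen after seeing the data. In neutrophil-like cells 15 and 16 cells per Trpv1-ADC mouse limit what can be seen, as do 299 UMIs for Il1a.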
